A study of Mus musculus with 15 samples.

Results

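The genes of the cytosolic ribosomal proteins were followed in the left ventricle of mice after myocardial infarction, with and without an inhibitor of the histone methyltransferase EZH2. Members were the protein-coding rows of the expression table whose symbol begins with Rpl or Rps and a number, or is Rplp or Rpsa. Kinases of the Rps6k family, rows named as pseudogenes, and Rpl3, Rpl3l, Rpl22 and Rpl22l1 were left out by the same rule. It found 82 genes of 54532 in the table: 41 of the large subunit, 31 of the small subunit, the 3 P-stalk genes, and 7 paralogs or other genes that share the naming.

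All animals were female C57BL/6JRj mice of 12 to 18 weeks and 20 to 22 g. The 5 Sham libraries came from the surgical controls, and Sham replicates 1 and 2 each mixed RNA of 2 animals. In the 5 MI libraries the left descending coronary artery had been tied off for good, and MI and Sham animals received the vehicle, 20% Captisol. The 5 GSK libraries came from animals given GSK-343 at 20 mg/kg into the abdomen, first 6 h after surgery and then daily to day 7. The names of these samples carry the compound alone; that the animals had an infarct is read from the treatment protocol. Hearts were collected 8 days after surgery, and poly-A RNA of the whole left ventricle was read as 150 nt pairs, so infarct, border and remote muscle were not separated.

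A cytosolic ribosome joins a small subunit, which reads the messenger, to a large subunit, which forms the peptide bond. Each subunit is built on ribosomal RNA and holds, as a rule, a single copy of each of its proteins, so that the genes are active in every cell and their messengers are abundant. Most of these messengers begin at a C followed by a stretch of pyrimidines, the 5′ terminal oligopyrimidine (TOP) tract, through which the mTOR pathway sets how strongly they are translated. In the heart, growth of muscle cells and the division of fibroblasts and immune cells both call for new ribosomes. Messenger levels, which are what was measured here, do not show translation or the number of ribosomes.

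The start sites were searched for runs of pyrimidines, the letters of a TOP tract. RefSeq promoters on GRCm38.p6 were matched by symbol for 63 of the 82 members, with 73 entries; each entry runs from 250 bases before the start to 50 after it. The windows below hold 10 bases before the start and 20 from it on, written 5′ to 3′. The longest run of 5 or more C or T letters near the start is in capitals, and the first where runs tie. In Rps27rt an equally long run, ctttcc, begins at the start itself and is not in capitals. Of these genes, Rpl12, Rps26, Rps15a and Rps18 were higher in MI than in Sham, Rplp2, Rps27 and Rps27rt did not pass the test, and Rpl10 and Rpsa were higher without such a run.
Rplp2: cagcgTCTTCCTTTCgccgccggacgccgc
Rpl12: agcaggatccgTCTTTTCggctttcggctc
Rps26: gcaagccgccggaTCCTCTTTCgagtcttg
Rps15a: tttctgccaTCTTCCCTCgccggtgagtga
Rps18: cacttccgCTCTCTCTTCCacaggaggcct
Rps27: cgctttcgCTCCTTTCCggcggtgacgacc
Rps27rt: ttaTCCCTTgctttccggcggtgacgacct
Rpl10: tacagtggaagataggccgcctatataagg
Rpsa: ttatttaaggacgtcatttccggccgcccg

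These windows lie at chr7:141447641-141447670 for Rplp2, chr2:32961702-32961731 for Rpl12, chr10:128626487-128626516 for Rps26, chr7:118116128-118116157 for Rps15a and chr17:33955646-33955675 for Rps18. Those of Rps27 and of its retrogene Rps27rt lie at chr3:90213629-90213658 and chr9:114982720-114982749, and those of Rpl10 and Rpsa at chrX:74270806-74270835 and chr9:120127756-120127785. The strand is plus for Rplp2, Rpl12, Rpl10 and Rpsa and minus for the rest. A run of 5 or more C or T letters touching the 5 bases on either side of the start was found in 50.7% of member entries and in 31.4% of all 32851 promoters of the same length. A run of 8 or more was found in 28.8% and 8.27%, and CTTT anywhere in the window in 27.4% and 11.6%. RefSeq starts can lie some bases from the start a heart cell uses. A window without capitals says only that no such run lies that near to the listed start. Runs farther in were not counted: the window of Rpsa holds tttcc, and that of Rps12, not shown, holds a longer one. Rps12 therefore counts below as a member without a run.

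Over the whole 300-base promoter and both strands, CCGGAAG, the core that ETS factors such as GABPA bind, was in 37.0% of member entries and 8.86% of all promoters. The YY1-type core AAGATGG was in 15.1% and 6.34%, and TATAAA in 6.85% and 13.6%. CCGGAAG ends and AAGATGG begins with AAG, so a single stretch can hold both. Among the matched and tested members, 12 of 33 with a run at the start and 6 of 25 without were higher in MI than in Sham. Over all genes tested, 21.9% were higher. The median differences of the members with and without a run were 0.27 and 0.23.

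The deposited values are FPKM, fragments per kilobase of exon, in libraries of 21.5 M to 26.8 M assigned fragments. They are scaled so that the median gene, not the library total, is level between libraries. Of the 82 members, 77 reached 1 FPKM in at least 5 libraries and were tested on log2(FPKM + 1). Members held 3.24% to 3.60% of the non-mitochondrial FPKM in Sham, 3.91% to 4.93% in MI and 3.09% to 4.23% in GSK. The MI range lay above the Sham range, and the GSK range overlapped both. MI replicate 4 and GSK replicates 3 and 4 were shown apart throughout, a choice made with that of the members, with earlier results of these data known. Mitochondrially encoded transcripts made up 40.6%, 46.4% and 48.7% of their FPKM. This share was 23.2% to 27.6% in the other MI libraries and 31.8% to 32.7% in the other GSK libraries. In Sham it was 41.2% to 42.2%, so MI replicate 4 stood just below the Sham range and GSK replicates 3 and 4 above it.

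In Sham the tested members spanned from 794 FPKM for Rplp1 to 3.26 FPKM for Rpl13a, with a median gene at 85.6. Next to Rplp1, the acidic P-stalk protein P1, came Rplp0 at 447 ± 34.7 (SD, n = 5), the stalk's anchor on the ribosomal RNA. Rpl36 followed at 410 ± 38.3, Rps3a1 at 394 ± 12.8 and Rps15 at 387 ± 28.5. Rpl36, Rps3a1 and Rps15 differ by less than their spread over the Sham libraries, so their order is not resolved. Replicate spread was small for most members: the coefficient of variation in Sham had a median of 8.42%, and ran from 2.55% to 44.6%, the latter in Rpl21.

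At the low end stood Rpl13a, Rps19bp1 at 7.97 ± 1.01, Rpl21 at 11.5 ± 5.13, Rpl7l1 at 13.9 ± 1.19 and Rps15a at 21.9 ± 2.3 FPKM. Rps19bp1 and Rpl7l1 are not structural proteins of the mature ribosome: the former binds Rps19, and the latter is a paralog of Rpl7. The position of Rps15a rests on the length used. The table divides by the union of all annotated exons, 6270 bases, whereas its main messenger has 640, and on that length its Sham level would be 215. On messenger length Rplp1 stayed highest at 794, Rps2 moved up to the next place at 673, and Rpl13a stayed lowest at 6.58.

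The other 5 members stayed under the filter and were not tested. Rpl10l, a testis paralog of Rpl10, was listed at 0 in every library, and Rpl39l, the paralog of Rpl39, reached at most 0.43 FPKM. Rpl36al, Rpl24 and Rps10 reached at most 0.343, 0.659 and 1.17 FPKM. Rpl24 and Rps10 belong to every ribosome. Rpl24, Rpl13a, Rpl36al and Rps10 are the members with the largest parts of their exons inside another gene on the same strand, 47.0%, 35.4%, 24.5% and 20.6%, against at most 14.5% for any other member. Those other genes, annotated read-through transcripts such as Gm45713 over Rpl13a, were at 0 FPKM in every library.

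Copies of the messengers also carried signal. Of the 82 members, 48 share at least 50% of the 50-base words of their main messenger with other annotated genes, and 3, Rpl39l and Rps19bp1 among them, share none. Rps10-ps2, a processed pseudogene on chromosome 16, stood at 109 ± 13.1 FPKM in Sham where Rps10 itself stood at 0.371 ± 0.217. Pseudogene rows held 98.5% of the fragments assigned to Rps10 and its copies in Sham, 79.8% of those of Rpl17 and 57.1% of those of Rpl21. The median over the 58 members with such rows was 0.851%. Only rows that carry the member's name were counted, so the share is a lower limit: the transcribed processed pseudogene Gm10275, a copy of Rpl12, stood at 54.1 ± 6.85 FPKM in Sham beside 41.3 for Rpl12. How fragments that match several genes were counted is not given in the sources used here, and values of these members are uncertain to that extent.

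Infarction is the first comparison of the design. In MI, 24 of the 77 tested members were higher than in Sham and 0 were lower (limma, adjusted p under 0.05), which is 31.2% of members; among all 12585 genes tested, 21.9% were called higher and 21.9% lower. At an unadjusted p under 0.05, 33 members were higher and 0 lower, beside 25.5% and 26.3% of all genes. A voom fit on recovered fragments called 28 higher and 0 lower, beside 22.2% and 22.0% of all genes. Without the mixed Sham libraries, 12 of 77 members were higher and 0 lower, beside 17.8% and 16.4% of all genes. The share of members called higher was then smaller than that of all genes, so the excess of higher calls was not kept. The median over members was 0.22 in that fit, beside -0.02 over all genes. With all libraries the differences were small. The median over members was 0.26 on the log2 scale, beside -0.02 over all genes tested, and 71 of 77 lay above 0. The largest called difference was 0.78, in Rps12. In 11 members all MI libraries lay above all Sham libraries (15.7% of all genes), and in 0 below them (14.2%). The median of the members stayed above 0 under each of the 4 other scalings tried. Equalising the FPKM totals moved the median of all genes to 0.28, and that of the members to 0.63. The calls were 11 of 40 large subunit genes, 13 of 30 small subunit genes, 0 of 3 P-stalk genes and 0 of 4 paralogs or others, with median differences of 0.26, 0.30, 0.19 and 0.12.

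**Figure D1:**
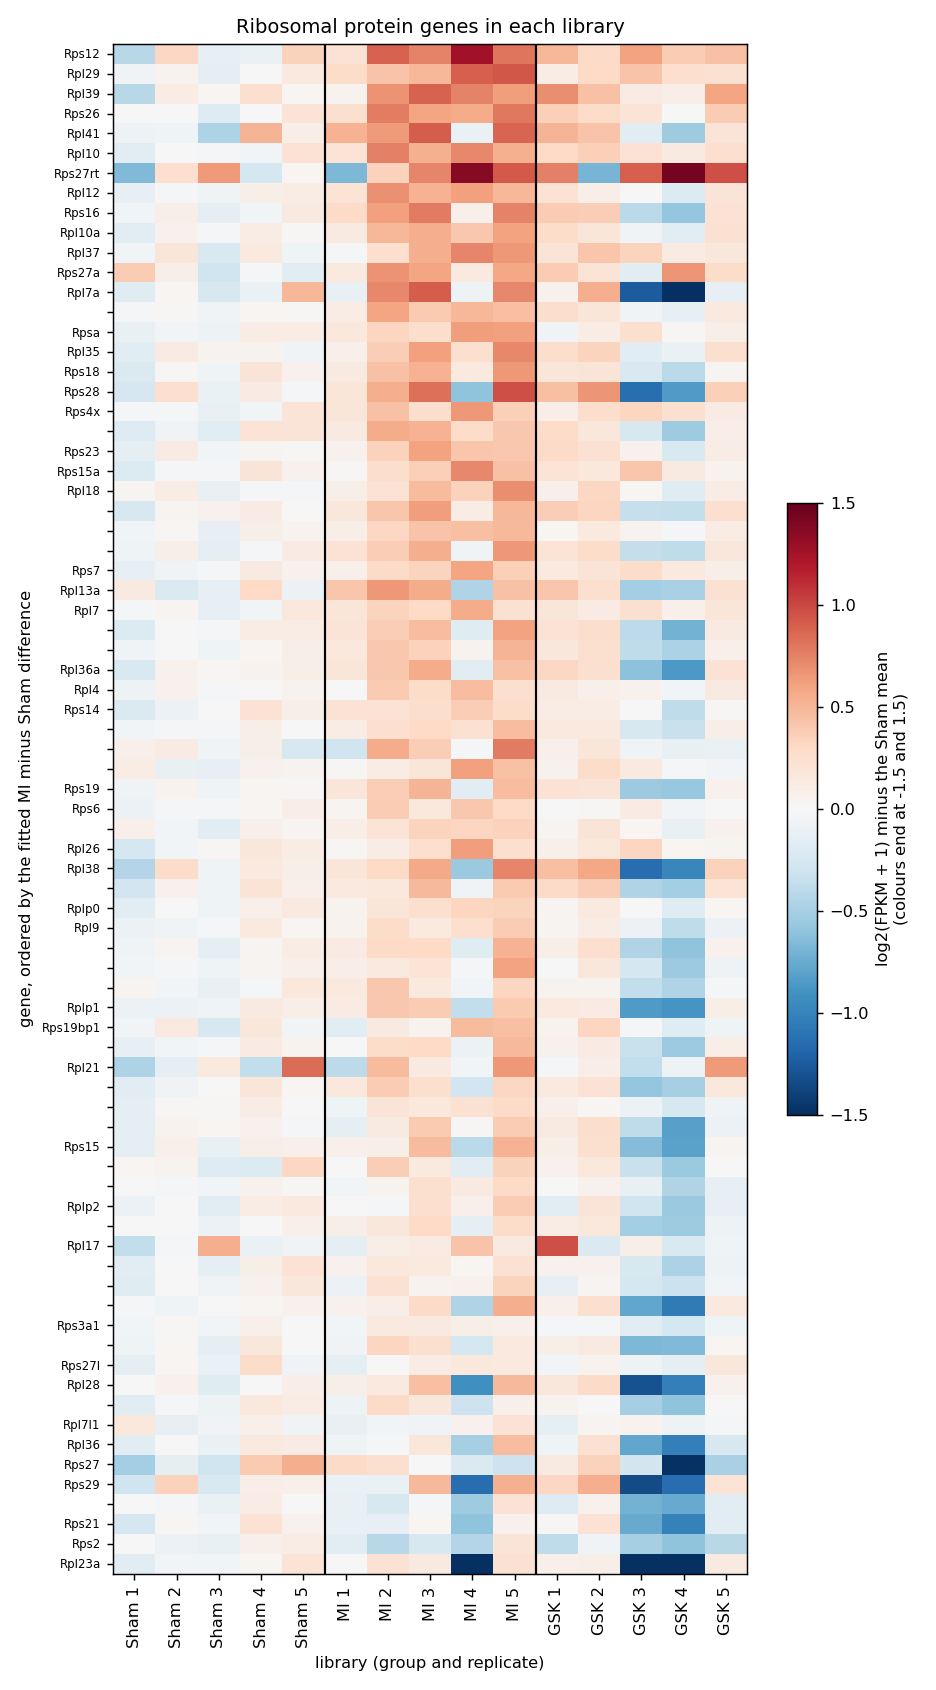
Each row is 1 of the 77 tested ribosomal protein genes, ordered by its fitted MI minus Sham difference, with labels for those named in the text, and each column is 1 library; colour gives log2(FPKM + 1) minus the mean of the 5 Sham libraries. Red fills most of the MI columns, while MI replicate 4 and GSK replicates 3 and 4 hold both deep blue genes, such as Rpl23a at -2.12 in MI replicate 4 and -2.27 in GSK replicate 3, and red ones, such as Rps27rt.

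Among the large subunit genes, Rpl10 had the lowest p. It encodes the protein that joins the large subunit late, beside the site of peptide bond formation. Its level was 113, 126, 124, 122 and 147 FPKM in Sham replicates 1 to 5 and 145, 213, 183, 208 and 183 FPKM in the MI replicates. Only Sham replicate 5 and MI replicate 1 overlapped. The difference was 0.55 ± 0.11 (SE) on the log2(FPKM + 1) scale, with an adjusted p of 0.00118 in limma.

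Rpl29, a protein found on the surface of eukaryotic large subunits, stood at 74.9, 80.5, 70.5, 77.5 and 86.2 FPKM in Sham and at 94.0, 105, 110, 146 and 149 FPKM in MI. All MI libraries were above all Sham libraries, by 0.61 ± 0.13 (limma adjusted p = 0.00150). Rpl12, at the base of the stalk that recruits translation factors, stood at 37.9, 40.6, 39.5, 43.7 and 44.7 FPKM in Sham and 47.5, 66.7, 59.6, 63.4 and 58.5 in MI. Its groups did not overlap either, and the difference was 0.50 ± 0.11 (limma adjusted p = 0.00160).

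Rpl10a, the protein of the L1 stalk that guides spent transfer RNA out, had a Sham mean of 68.5 ± 4.94 FPKM and rose to 93.4 ± 11.2 under MI (SD, n = 5 each). Its difference was 0.44 ± 0.11 with a limma adjusted p of 0.00542, and the 2 groups did not overlap. Rpl39, which lines the tunnel through which the new chain leaves, rose from 42.6 ± 6.9 to 65.5 ± 13.2 FPKM (0.60 ± 0.17, limma adjusted p = 0.01). MI replicate 1, at 43.7 FPKM, lay inside the Sham range of 31.4 to 50 FPKM. Rpl7 rose from 118 ± 8.74 to 147 ± 15.7 FPKM (0.32 ± 0.09, limma adjusted p = 0.0120) without overlap. The calls of Rpl39 and Rpl7 were lost when the mixed Sham libraries were left out, at adjusted p values of 0.0569 and 0.0520.

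Among the small subunit genes, Rps26, which lies where the messenger leaves the ribosome, had the lowest p. Its level was 80.0, 79.8, 70.0, 79.9 and 92.7 FPKM in Sham and 94.9, 137, 121, 118 and 140 FPKM in MI. The groups did not overlap, and the difference was 0.59 ± 0.12 (limma adjusted p = 0.00118). Rps12 stood at 24.4, 41.0, 30.2, 30.6 and 42.1 FPKM in Sham and 38.5, 61.6, 55.7, 80.2 and 58.2 in MI. MI replicate 4, one of the libraries shown apart, was its highest, and MI replicate 1 lay inside the Sham range. The difference of Rps12 was 0.78 ± 0.17 (limma adjusted p = 0.00240), and 0.66 ± 0.17 without the libraries shown apart.

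Rps4x, the X-linked gene of the protein S4, rose by 0.38 ± 0.10 (limma adjusted p = 0.00814). Rpsa, also known as the laminin receptor precursor, rose from 149 ± 11.1 to 198 ± 29.6 FPKM (0.40 ± 0.11, limma adjusted p = 0.00899). Its call was lost without the mixed Sham libraries, at an adjusted p of 0.0656.

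Rps15a, Rps18 and Rps27a passed with less margin. Rps15a rose by 0.36 ± 0.12 (limma adjusted p = 0.0222), Rps18 by 0.38 ± 0.14 (0.0385) and Rps27a, made as a fusion with ubiquitin, by 0.43 ± 0.16 (0.0446). Rps15a lost its call when MI replicate 4, Sham replicate 1 or both mixed Sham libraries were left out, and its adjusted p reached 0.132. Rps18 and Rps27a lost theirs in 10 and 12 of 30 alternatives, with adjusted p values up to 0.167 and 0.110.

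The other called members included the large subunit genes Rpl4, Rpl18, Rpl35 and Rpl37 and the small subunit genes Rps6, Rps7, Rps16 and Rps23, named here after their values were seen. Their differences ran from 0.26 in Rps6 to 0.50 in Rps16. Rps6 is the ribosomal protein that S6 kinase phosphorylates. It stood at 162 ± 8.5 and 194 ± 20.2 FPKM. Without the libraries shown apart Rpl37, Rpl4 and Rps6 did not pass, at adjusted p values of 0.0516, 0.0586 and 0.0606.

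The P-stalk genes did not pass the test. Rplp0 stood at 447 ± 34.7 FPKM in Sham and 523 ± 41.4 in MI (0.23 ± 0.10, limma adjusted p = 0.0849). Rplp1 stood at 746, 747, 757, 871 and 847 FPKM in Sham and 861, 1050, 1030, 611 and 1040 in MI, where MI replicate 4 lay below every other library of both groups. Its difference was 0.19 ± 0.23 (limma adjusted p = 0.525), and 0.33 ± 0.10 without the libraries shown apart, with an adjusted p of 0.0224. Rplp2 stood at 88.5 ± 7.97 and 97.5 ± 12.1 FPKM (0.14 ± 0.13, limma adjusted p = 0.415). Rpl41, which encodes a very short basic peptide at the join of the subunits, differed by 0.57 ± 0.23 (limma adjusted p = 0.0615) and passed in 8 of 30 alternatives.

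**Figure D2:**
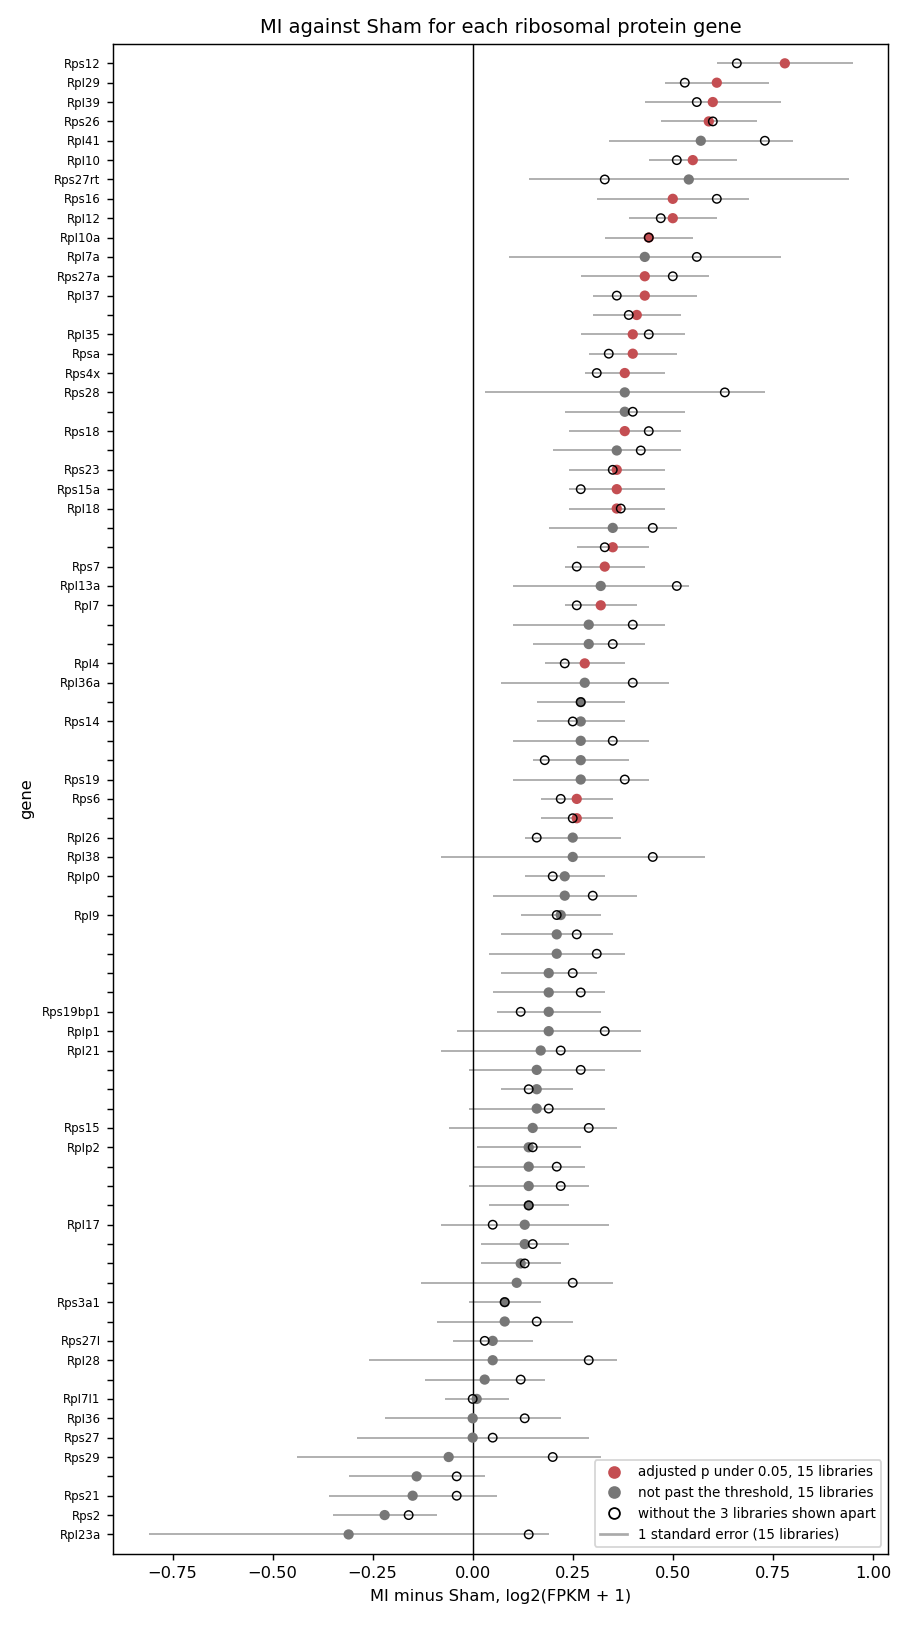
Fitted MI minus Sham difference in log2(FPKM + 1) for each of the 77 tested genes, with 1 standard error and labels for those named in the text; red points passed the test, grey points did not, and open circles give the fit without MI replicate 4 and GSK replicates 3 and 4. Most points lie above 0, as do 71 of 77, and the open circles of Rpl23a, Rps29, Rps28, Rpl28 and Rpl38 lie far to the right of their grey points.

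The members with the lowest values in MI minus Sham did not pass the test either. Rps2, which lies where the messenger enters, stood at 366, 345, 340, 386 and 396 FPKM in Sham and 324, 275, 309, 270 and 418 FPKM in MI. In 4 of 5 MI libraries it was below every Sham library, while MI replicate 5 was above all of them. The difference was -0.22 ± 0.13 (limma adjusted p = 0.206); without MI replicate 5 the gene was called lower, at an adjusted p of 0.0433. Rps21 differed by -0.15 ± 0.21 (limma adjusted p = 0.584). Rps29, Rps27 and Rpl36 were at adjusted p values of 0.903, 0.997 and 0.991.

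The tested paralogs did not pass the test between MI and Sham. Rps27l, a p53-responsive relative of Rps27, stood at 59.2 ± 7.24 and 61.3 ± 5.22 FPKM (0.05 ± 0.10, limma adjusted p = 0.684). Rpl7l1 stood at 13.9 ± 1.19 and 14.1 ± 1.37 FPKM, a difference of 0.01 ± 0.08, beside 0.32 ± 0.09 for Rpl7. The difference between the members of such a pair was not tested. Rps19bp1 differed by 0.19 ± 0.13 (limma adjusted p = 0.239) beside 0.27 ± 0.17 (0.192) for Rps19.

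The heart tissue of the groups also differed in its cell markers. The 10 cardiomyocyte markers summed to 17000 to 22700 FPKM in Sham and 12500 to 24900 in MI, with none of them at 0, and 5 of 10 were lower in MI. The 10 fibroblast markers summed to 351 to 508 FPKM in Sham, 870 to 2080 in MI and 570 to 2030 in GSK, and 7 of 10 were higher in MI. The 10 macrophage markers summed to 312 to 389 FPKM in Sham, 675 to 1190 in MI and 455 to 1060 in GSK, and all 10 were higher in MI. The 10 dividing-cell genes summed to 2.87 to 7.10, 21.5 to 47.1 and 19.4 to 39.6 FPKM, and all 10 were higher in MI. Endothelial markers, at 147 to 167 FPKM in Sham and 154 to 216 in MI, overlapped, with 2 of 7 higher. The 5 germ cell markers summed to 0.188 to 0.390 FPKM in Sham, 0.0409 to 0.317 in MI and 0.0915 to 0.409 in GSK. Of these, Prm2 and Tnp1 were at 0 in every library. The part of cell composition in the members' differences was not tested, and in whole tissue more cells of a type cannot be told apart from more messenger per cell.

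Other genes of translation were mixed. Of 3 ribosomal proteins outside the naming rule, 2 were higher and 0 lower. Fau, which encodes the small subunit protein S30, rose from 168 ± 8.42 to 225 ± 30.2 FPKM (0.41, limma adjusted p = 0.0142). Rack1, the scaffold on the small subunit's head, rose from 59.4 ± 2.02 to 80.8 ± 8.23 FPKM (0.43, limma adjusted p = 0.00108). Of 15 translation factors with a TOP messenger, 4 were higher and 1 lower, with a median of 0.13. That count is near the 21.9% of all genes called higher.

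Eef1a1, the elongation factor of most tissues, rose from 363 ± 33.5 to 705 ± 151 FPKM (0.94, limma adjusted p = 0.000479). Eef1a2, the form of adult muscle, stood at 584 ± 87.0 and 462 ± 126 FPKM and did not pass (-0.36, limma adjusted p = 0.124). Pabpc1, the poly-A binding protein, rose from 14.7 ± 0.925 to 31.9 ± 8.21 FPKM (1.03, limma adjusted p = 0.000165). Of 20 other initiation factors, 3 were higher and 5 lower: Eif4a1 rose by 0.78 and its paralog Eif4a2 fell by 0.61 on the log2 scale, with adjusted p values of 0.000456 and 0.000491.

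Genes that make or regulate ribosomes were mixed. Of 43 biogenesis factors tested, 6 were higher and 1 lower (median 0.09), with Rrp12 at 0.96, Bop1 at 0.43 and Nop56 at 0.34 among those that rose. Of 15 genes of the RNA polymerase I machinery, which makes ribosomal RNA, 1 was higher (Polr1e, 0.64) and 2 were lower (Taf1a, -0.41, and Polr1a, -0.39). Of 13 chaperones of ribosomal proteins and nascent chains, 2 were higher and 1 lower. The lower gene, Naca (-0.29, limma adjusted p = 0.0366), is also the lower gene among the translation factors with a TOP messenger. Naca and Btf3 stand in both lists. Of 21 tested mTOR and Myc regulators, 3 were higher and 10 lower (median -0.24). Those that fell include the mTOR inhibitor gene Tsc1 (-0.41, limma adjusted p = 0.000146), the translation repressor Eif4ebp2 (-0.62) and Max (-0.44), the partner of Myc.

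Host genes of small nucleolar RNAs, whose transcripts also begin with a TOP tract, were higher in 5 of 8 tested (median 0.59), with Snhg1 at 0.60, Snhg5 at 0.60 and Snhg6 at 0.62. The mitochondrial ribosomal proteins, a separate family for the organelle's own ribosome, went the other way: 0 of 77 tested were higher and 26 lower, with a median of -0.32. Beside them stand the 24 higher and 0 lower of the 77 cytosolic members, and 21.9% in either direction over all genes. Mrpl50 fell by 0.67 on the log2 scale, from 28.5 ± 0.796 to 17.6 ± 2.35 FPKM. These lists were chosen with earlier results known, so their counts describe and do not test the lists.

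The second comparison asks whether the inhibitor moved these genes in infarcted hearts. None of the 77 members passed the test between GSK and MI (limma, smallest adjusted p = 0.0888), and the voom fit called none either. At an unadjusted p under 0.05, 32 members were lower and 0 higher, where 10.1% of all genes were lower and 10.8% higher; 0 of 12585 genes passed the adjusted threshold in either direction. The median difference was -0.30, beside 0.00 over all genes, and 76 of 77 members lay below 0. Without the 3 libraries shown apart the median was -0.14, 7 members were lower at an unadjusted p under 0.05 (4.02% of all genes) and 0 higher (5.88%), and the smallest adjusted p was 0.478. Over the 15 fits that left out 1 library, 4 members were lower without MI replicate 1 and 1 was lower without GSK replicate 5, where 1.5% and 1.06% of all genes were. This comparison shares the MI libraries with the first.

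The lowest p belonged to Rpl12, at 48.2, 44.2, 41.4, 35.6 and 47.2 FPKM in GSK beside 47.5, 66.7, 59.6, 63.4 and 58.5 in MI. MI replicate 1 lay within the range of the GSK libraries and the other MI libraries above all of them. The difference was -0.44 ± 0.11 (limma adjusted p = 0.0888), and -0.30 without the libraries shown apart (adjusted p = 0.478). Rpl10a differed by -0.34 ± 0.11 (limma adjusted p = 0.131), Rps18 by -0.42 ± 0.14 (0.135) and Rpl9 by -0.30 ± 0.10 (0.135). GSK means of these genes stood between those of Sham and MI for Rpl12 and Rpl10a, at 43.3 and 73.6 FPKM, and below the Sham mean for Rps18 and Rpl9, at 79.6 and 58.2.

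Rps14 alone among the tested members had GSK libraries all below the MI libraries, at 152 to 214 against 230 to 257 FPKM, where 0.858% of all genes did, and 0 members had them all above (1.15%); it was named after its values were seen. Its difference was -0.30 ± 0.11 (limma adjusted p = 0.164). Rps27rt was the sole member with a value above 0, at 0.13 ± 0.40 (limma adjusted p = 0.873). The macrophage markers also ran lower in GSK than in MI, with 0 of 10 passing the test and a median of -0.53; whether this bears on the members was not tested.

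Set against Sham, the GSK libraries showed no member past the threshold (limma, smallest adjusted p = 0.0543), where 10.8% of all genes were higher and 7.58% lower. At an unadjusted p under 0.05, 3 members were higher and 1 lower, beside 18% and 16.6% of all genes, and the voom fit called 0 higher and 1 lower. The median was -0.03, beside -0.02 over all genes; it was 0.08, 0.10 and 0.16 under quantile normalization, equalised non-mitochondrial totals and equalised totals, beside -0.03, 0.09 and 0.14 over all genes in the same fits. Without the libraries shown apart it was 0.14, with 68 of 77 members above 0, and 1 member, Rpl39, was called higher (0.57, limma adjusted p = 0.0443) and 0 lower, beside 13% and 8.67% of all genes. At an unadjusted p under 0.05 these were 10 and 0 members, beside 19.6% and 17%.

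Rps2 came nearest to the threshold, at 281, 353, 258, 240 and 274 FPKM in GSK beside 340 to 396 in Sham. GSK replicate 2 lay inside the Sham range and the other 4 libraries below it. The difference was -0.39 ± 0.13 (limma adjusted p = 0.0543), it passed in 7 of 30 alternatives, and it was -0.28 without the libraries shown apart (adjusted p = 0.172). On the other side stood Rps12 at 0.44 (limma adjusted p = 0.0880), Rpl39 at 0.39 (0.115), Rpl10 at 0.25 (0.123), Rps26 at 0.25 (0.150), Rpl29 at 0.26 (0.152) and Rps4x at 0.21 (0.159).

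**Figure D3:**
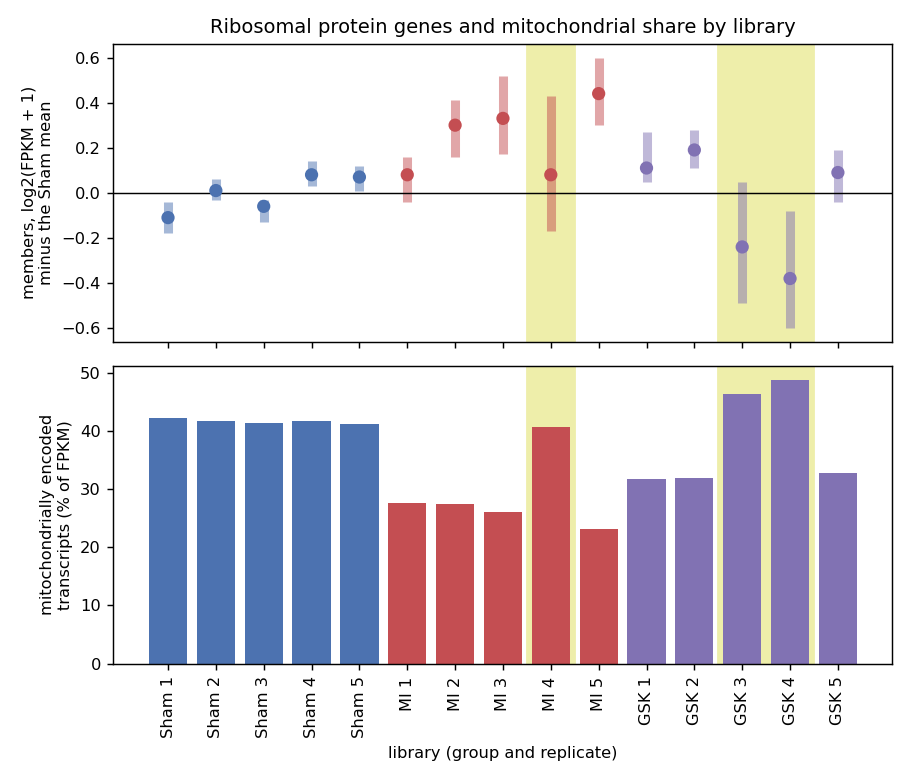
Upper panel: the median (point) and quartiles (bar) over the 77 tested members of log2(FPKM + 1) minus the Sham mean, for each library; lower panel: the share of FPKM on mitochondrially encoded transcripts. The shaded MI replicate 4 and GSK replicates 3 and 4 have the widest bars, with medians of 0.08, -0.24 and -0.38, and shares of 40.6%, 46.4% and 48.7%.

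By library, the median member lay between -0.11 and 0.08 of the Sham mean in Sham, at 0.08, 0.30, 0.33, 0.08 and 0.44 in MI replicates 1 to 5, and at 0.11, 0.19, -0.24, -0.38 and 0.09 in GSK. MI replicate 1 was therefore as near to Sham as MI replicate 4. Because the 3 libraries shown apart were chosen with earlier results of these data known, their contrast with the rest is a description and no test. These 3 libraries differed from the rest of their groups in the spread over genes. The distance between the quartiles of the members was 0.60, 0.54 and 0.52 in them, 0.20 to 0.36 in the other MI libraries and 0.16 to 0.23 in the other GSK libraries.

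Rpl23a, Rps29, Rps28 and Rpl28 stood low in all 3. Each library was compared with the libraries of its own group that are not shown apart, the other 4 MI libraries or GSK replicates 1, 2 and 5. Rpl23a, the protein at the tunnel exit where the signal recognition particle docks, departed the most. It was at 122, 142, 134 and 143 FPKM in MI replicates 1, 2, 3 and 5 and at 27.4 in MI replicate 4. In GSK replicates 1, 2 and 5 it was at 129, 130 and 134, and in replicates 3 and 4 at 24.6 and 41.4. Over the 3 libraries the mean departure of Rpl23a was -2.09, or 0.235 of the level in the other libraries. The values in the other 12 libraries, Sham included, lay between 110 and 143 FPKM.

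Next came Rps29 with a mean departure of -1.51, Rps28 with -1.40, Rpl38 with -1.35, Rpl28 with -1.30 and Rpl7a with -1.23, named after their values were seen. Rps28, a small subunit protein at the messenger's exit, was at 47.1, 61.2, 74, 27 and 82 FPKM in MI replicates 1 to 5 and at 57.3, 66.1, 18.4, 22.5 and 53.2 in GSK. The libraries shown apart lay below all 5 Sham libraries, which ran from 34.8 to 49.4, and the rest of MI and GSK lay above or inside that range. Rpl38, a small large-subunit protein known for patterning the mouse skeleton, was at 87.0 in MI replicate 4 and 57.7 and 64.4 in GSK replicates 3 and 4. In the other MI and GSK libraries it ran from 146 to 214 FPKM.

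Other members were level or higher in the same libraries. Rps27rt departed by 0.90 on average, Rps12 by 0.25, Rps15a by 0.24, Rpl26 by 0.22, Rpl29 by 0.21 and Rps4x by 0.19. Rps15a, for example, was at 36.6 FPKM in MI replicate 4 beside 22.1 to 29.9 in the other MI libraries, and at 29.3 and 24.0 in GSK replicates 3 and 4 beside 22.6 to 25.2. A departure of -1 or lower was seen in 4, 6 and 11 of 77 members in MI replicate 4 and GSK replicates 3 and 4, or 5.19%, 7.79% and 14.3%, and in 1.27%, 1.61% and 1.63% of all genes. In each of the other 12 libraries at most 1 member departed so far.

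**Figure D4:**
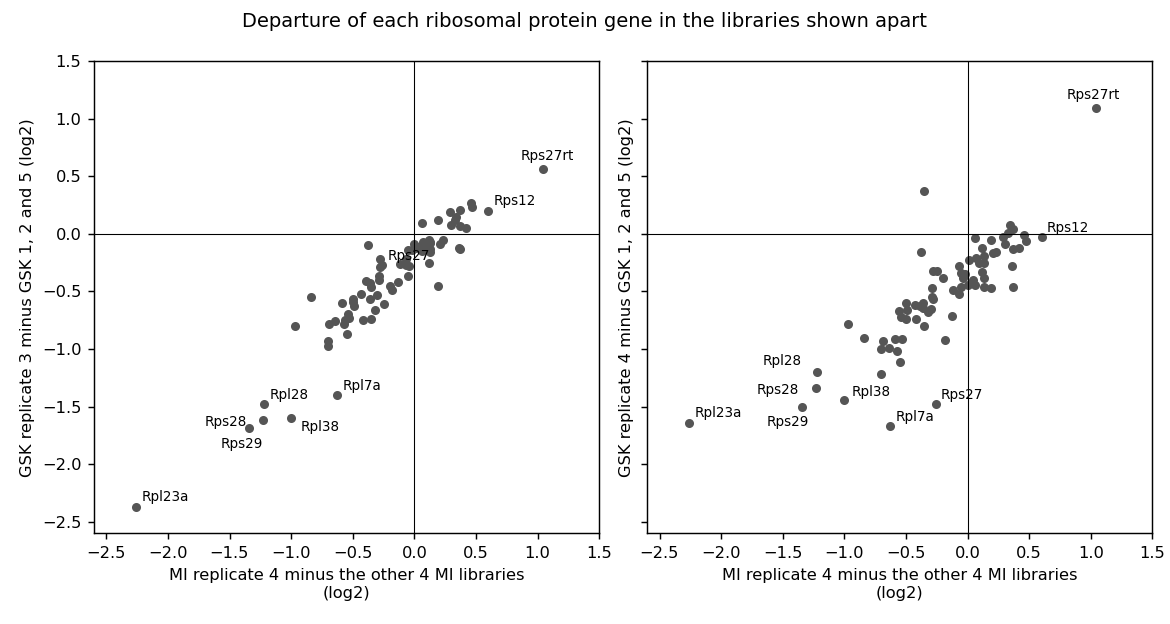
Each point is 1 of 77 ribosomal protein genes; the horizontal axis gives its log2 level in MI replicate 4 minus the other 4 MI libraries, and the vertical axes give GSK replicate 3 (left) and 4 (right) minus GSK replicates 1, 2 and 5. Points run along the diagonal from Rpl23a, Rps29, Rps28 and Rpl28 at the lower left to Rps27rt at the upper right, with Pearson r of 0.940 and 0.836.

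Across the 77 genes the departures of MI replicate 4 and GSK replicate 3, which have no comparison library in common, had a Pearson r of 0.940 and a Spearman rho of 0.925. For MI replicate 4 and GSK replicate 4 these were 0.836 and 0.858. Over all 12585 genes the Pearson values were 0.560 and 0.546. Between a library shown apart and the ordinary libraries of the other group, r over the members ran from -0.353 to 0.283. These are descriptions across genes of single libraries, which are not independent replicates. The departure was weakly related to what is known of each messenger: Spearman rho was 0.281 with messenger length, 0.334 with coding length, -0.261 with GC content and -0.00515 with the share of sequence found in other genes. The 26 shortest messengers, of 271 to 583 bases, had a median departure of -0.56, the 26 of middle length -0.17 and the 25 longest -0.18.

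For Rpl23a a pseudogene row gives a second reading. Rpl23a-ps3 on chromosome 14 was at 46.3 FPKM in MI replicate 4 beside 36.8 to 53.7 in the other MI libraries, and at 34.0 and 33.4 in GSK replicates 3 and 4 beside 34.2 to 42.2. The copy therefore stayed within 1 FPKM of the range of its group where the parent row was far below it. Copies of other members did not all do so. Rpl21-ps15 was at 53.8 FPKM in MI replicate 4 beside 89.7 to 112 in the other MI libraries. In GSK replicates 3 and 4 it was at 35.1 and 45.4 beside 90.1 to 98.9. Rpl17-ps10 was at 162 beside 170 to 259 in MI, and at 116 and 100 beside 193 to 196 in GSK. Summing all pseudogene rows into their genes was an alternative chosen after seeing the data. It gave 25 of 78 members higher in MI than in Sham, beside 22.0% of all genes, with all 24 main calls among them. The added call was Rpl17, whose copy Rpl17-ps10 was at 144 ± 23.0 FPKM in Sham and 208 ± 44.8 in MI; the summed gene rose by 0.42 (limma adjusted p = 0.0147) where its own row gave 0.13.

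With MI replicate 4 and GSK replicates 3 and 4 left out, 39 of 77 members were higher in MI than in Sham and 0 lower, beside 22.9% and 23.9% of 12348 genes. Of the 24 calls made with all libraries, 21 were among them. The median moved only from 0.26 to 0.27. Rpl13a, Rps19 and Rpl36a were among those gained, at 0.51, 0.38 and 0.40 with adjusted p values of 0.00214, 0.00235 and 0.00529. Rpl23a changed from -0.31 to 0.14 and did not pass (adjusted p = 0.222).

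Rps27 and Rps27rt are a pair of members with nearly the same sequence, and their split of signal varied between libraries. Rps27rt, a retrogene on chromosome 9, shares 91.1% of its 50-base words with other genes, and Rps27 98.6%. Their start windows above share a stretch that begins inside the run in capitals for Rps27 and after it for Rps27rt. Rps27 was at 65.6, 85.1, 76.5, 124 and 138 FPKM in Sham, 115, 111, 93.2, 80.8 and 75.3 in MI and 103, 120, 77.4, 33.0 and 66.9 in GSK. Rps27rt was at 55.8, 106, 138, 73.5 and 90.7, then 55.2, 113, 148, 230 and 169, then 150, 54.1, 166, 241 and 174 FPKM. In GSK replicate 4 Rps27 was at its lowest and Rps27rt at its highest of all 15 libraries, while in Sham replicate 1 both were low.

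The share of their joint fragments that fell on Rps27rt ran from 17.6% to 39.2% in Sham, 14.7% to 50.5% in MI and 13.9% to 72.4% in GSK. The sum of both, as FPKM times exon kilobases, averaged 136 ± 32.9 over Sham, 153 ± 12.4 over MI and 142 ± 14.0 over GSK libraries (SD, n = 5). In GSK replicate 4, where Rps27 was at its lowest, the sum was 125, the lowest of the GSK libraries, below all MI libraries and inside the Sham range of 89.3 to 177. Neither gene passed the test in any of the 3 comparisons: Rps27rt differed by 0.54 ± 0.40 in MI against Sham (limma adjusted p = 0.291), and Rps27 had an adjusted p of 0.997.

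**Figure D5:**
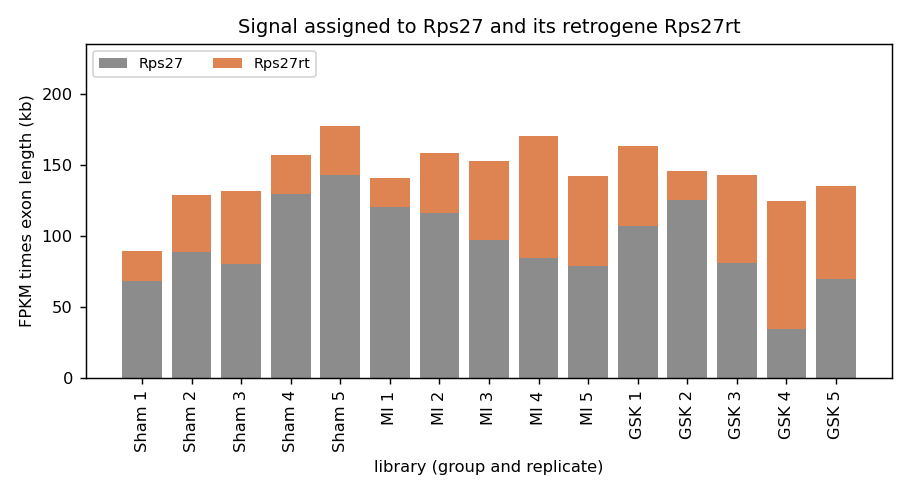
Stacked bars give FPKM times exon length in kilobases for Rps27 (grey) and Rps27rt (orange) in each of the 15 libraries. The orange share varies from 13.9% in GSK replicate 2 to 72.4% in GSK replicate 4, and the sums run from 89.3 to 177 in Sham, 141 to 171 in MI and 125 to 163 in GSK.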

How the data were processed

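The authors deposited FPKM values, a level per kilobase of summed exons, for every gene with its gene length; HISAT2, featureCounts and DESeq2 with build mm10 are named per the submitters' processing notes, without roles. How strand and multiply matching fragments were handled is not given in the sources used here. All values times gene length were whole multiples of a step (100% within 0.01), so fragments could be recovered; the step times a median-of-ratios factor varied by 0.072% over the 15 libraries, and times the fragment total by 8.2%.

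Values were taken as log2(FPKM + 1), which understates changes of low genes. The 12585 genes that reached 1 FPKM in 5 or more libraries were fitted with limma 3.58.1 in R 4.3.3 over all 15 libraries (group means, eBayes with a trend). Calls were made at a Benjamini-Hochberg adjusted p under 0.05 over all genes. P-values measure the spread between libraries, which per the labels' protocols are independent mice apart from the 2 mixed Sham libraries. The fit was also run on simulated counts with the same spread setting for all genes and no deviating library. That run does not show how the fit behaves with libraries like those shown apart. Shared sequence was counted as 50-base words of the principal GENCODE vM21 messenger against all other genes' transcripts. Departures and pseudogene sums were computed on the same scale.

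Members, gene lists and the libraries shown apart were chosen with earlier results of these data known. Named members are the 5 highest and 5 lowest in Sham, the 6 of lowest p in each direction of each comparison, the P-stalk genes, Fau, Rack1, Eef1a1, Eef1a2, Rpsa, Rpl41, Rps27a, and the paralogs with their partners; from each pathway list, the 3 of lowest p. Results of some of these genes are not reported here. Other scalings, filters, pseudocounts, left-out libraries, a replicate block, library weights and voom were tried.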

Additional observations from a re-analysis of the deposited data

Results flagged for a closer look

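In 4 of 111 groups of 5 values, named members held a library far from the other 4 (Dixon's ratio above 0.71 on the log2 scale). Chance would flag about 1 group in 20, or 5.55 of 111, if the groups were independent. They share the same 15 libraries, so the comparison cannot show whether there are more flags than chance gives. Of the 4 flags, 3 fell on MI replicate 4, a library shown apart. They were Rpl23a at 27.4 FPKM beside 122 to 143 in the other MI libraries, Rpl13a at 2.08 beside 4.61 to 5.59, and Rps21 at 91.6 beside 128 to 146. The fourth was Rpl36a in Sham replicate 1, a mixed library, at 31.4 FPKM beside 37.8 to 39.6. GSK replicates 3 and 4 departed together, and a ratio that looks for a single library does not pick out such a pair.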

How the results depend on the processing

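In MI against Sham, the count of 24 higher members moved past 1.5 times under several alternatives. It was 37 under quantile normalization, beside 21.1% of all genes, and 40 under equalised non-mitochondrial totals, beside 26.3%. Equalised totals gave 55, beside 46.8%, and leaving out the 3 libraries shown apart gave 39, beside 22.9%. Without the 2 mixed Sham libraries it was 12 of 77, a smaller share than the 17.8% of all genes. Apart from fits that left out 1 library, other alternatives gave 19 to 33, beside 9.56% (no filter) to 25.4%. Leaving out 1 library in turn gave 17 to 28 higher, beside 18.9% to 22.0% of all genes. It gave 0 to 1 lower, beside 17.9% to 23.2%, the 1 being Rps2 without MI replicate 5. Equalised totals moved the median to 0.63 (GSK against Sham, 0.16); left-out libraries gave medians of 0.22 to 0.30, -0.35 to -0.21 (GSK against MI) and -0.10 to 0.05 (GSK against Sham). In GSK against MI, left-out libraries gave 0 to 4 lower members, 4 without MI replicate 1 and 1 without GSK replicate 5. In GSK against Sham, members called higher were 2 under quantile normalization, 8 and 12 under the equalised totals (beside 9.73%, 15.5% and 18.9% of all genes), 1 without the libraries shown apart, 2 with the groups fitted alone, 2 with library weights and 0 to 1 with left-out libraries; lower were 1 with the groups alone, with library weights and with voom, and 0 to 1 with left-out libraries. The cause was not tested. Of the 15 named calls in MI against Sham, 9 held in all 30 alternatives, and 0 values reversed.

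Replicate numbers are shared by the groups, but the correlations of same-numbered libraries ran from -0.411 to 0.486, the highest between MI and GSK replicate 4, both shown apart. Not every pair was over 0.1, so the numbers were not taken as pairs. With a replicate block, 19 members were higher in MI than in Sham, beside 20.3% of all genes, with all 19 among the 24.

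Depth ran from 21.5 M to 26.8 M assigned fragments. A single fragment per kilobase stood for 0.0357 to 0.0478 FPKM, a step that follows the scaling factor of the library and not its fragment total. At that step, depth limits only the members under 1 FPKM.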
